A study of Mus musculus with 33 samples.

Results

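Lineage-negative cells (Lin-) and whole bone marrow cells (BMC) of adult mice were compared, to show what the removal of mature blood cells takes away from the RNA of marrow and what it leaves. Each group had 3 libraries, 6 of the 33 in the series, and 12428 of 38899 genes entered the comparison because they had at least 1 FPKM in at least 3 of these 6 libraries. Both groups were C57BL/6 mice labelled wildtype, 8 to 12 weeks old, with no treatment, and their source was femur and tibia. Per the labels, crushed bone was digested with collagenase IV to single cells, which were stained and sorted by FACS (fluorescence-activated cell sorting) into lysis buffer. The labels call the first group cells of whole bone marrow and the second lineage-negative cells of whole bone, so a difference in how much bone went into the suspensions cannot be told apart from the depletion. The antibodies of the lineage gate are not given in the sources used here, and the labels do not say whether replicates are separate animals, so each p-value measures the spread between these samples, which may be technical. FPKM, as the authors deposited them, are fragments per kilobase of exon divided by a total for each library. That total was not the library's own reads, as described under the processing of the data.

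Blood cells form in the marrow from stem cells through progenitors that commit to the granulocyte, monocyte, lymphoid, erythroid or megakaryocyte lines, and mature cells of most lines carry surface proteins that define them. Lineage depletion discards cells that bind antibodies to such proteins, commonly CD3, CD4, CD8, B220, CD11b, Gr-1 and NK1.1 among others. What is left holds stem and progenitor cells, early cells of lines whose marker appears late, and cells that never carry these proteins, such as the stromal, bone, cartilage and endothelial cells that form the niche of blood stem cells.

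The libraries held 5.1 to 5.713 M (mega) reads in BMC and 5.3 to 6.403 M in Lin-, as recovered from the steps of the FPKM. At 1 FPKM or more were 11801 to 11889 genes in BMC and 11509 to 12009 in Lin-. Across the genes tested, the log2 values of libraries of 1 group correlated with r of 0.972 to 0.977 within BMC and 0.913 to 0.97 within Lin-, against 0.634 to 0.698 between the groups. Lin- replicate 3 stood apart from the other Lin- libraries, mainly in genes of maturing red cells. List counts that it changed by over 1.5 times, with the genes tested kept the same, are also given without it. The Y-linked gene Ddx3y was at 0, 0.0471 and 17.5 FPKM in BMC and 12.3, 9.63 and 13.9 in Lin-, and Xist, which is expressed from the inactive X chromosome of females, at 24.4, 23.3 and 0.0215 in BMC and 0, 0 and 0.01205 in Lin-. BMC replicates 1 and 2 thus had the pattern of female cells and the other 4 libraries that of male cells, and the part of sex in the results was not tested. Without BMC replicate 3, the 4 Y-linked genes measured (Ddx3y, Eif2s3y, Kdm5d and Uty) were called higher in Lin-, against 0 with it.

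Of the 12428 genes, 3615 were higher and 3529 lower in Lin-, at a Benjamini-Hochberg adjusted p below 0.05 in limma. These are 29.1% and 28.4% of the genes tested (57.5% together), and the libraries of the groups did not overlap for 66.1% of genes, so a call by itself says little about any gene. Each list count below is to be read beside these shares of higher and lower genes. The sizes were uneven. Over 8-fold on the log2(FPKM + 1) scale were 123 higher and 445 lower genes, and the median of all genes was 0.03. Of the genes tested, 621 passed the filter only through Lin- and 666 only through BMC; these had to differ, so in lists rich in them the counts describe which genes were seen and support nothing. When a library of that group is left out and the filter is applied again, such genes drop out of the test. Rescaling to TPM raised the median gene by 0.22 and the share of calls that were higher from 50.6% to 60.1%. In bulk libraries, fewer cells of a type and less RNA per cell cannot be told apart.

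**Figure D1:**
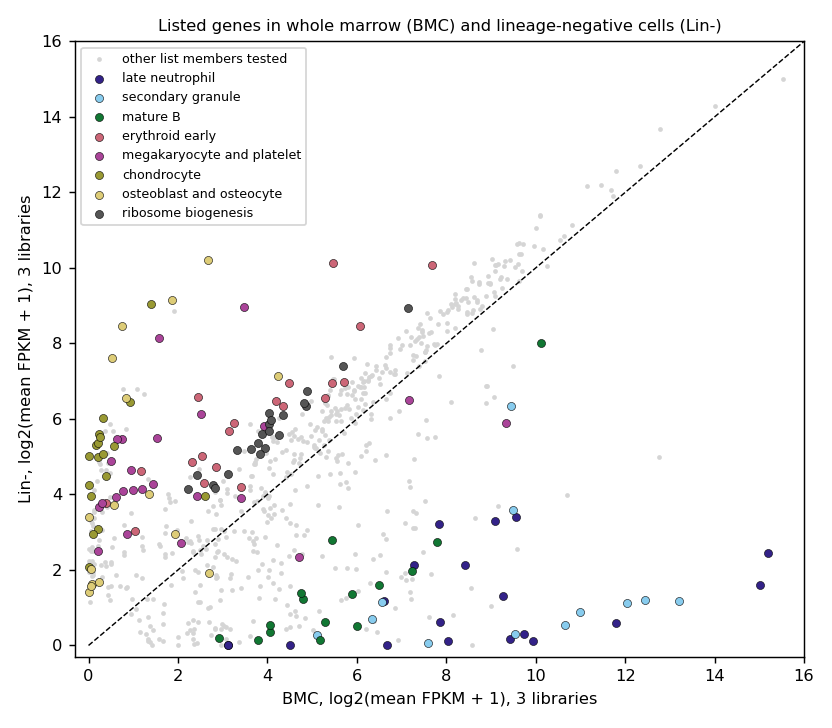
Mean level in BMC (x axis) and in Lin- (y axis), both as log2(mean FPKM + 1) over 3 libraries, for the tested members of the gene lists, 8 of them coloured and the others grey; the dashed line marks equal levels. Neutrophil genes lie at the lower right, with S100a8 at 38770, 30480 and 29440 FPKM in BMC and under 4 in Lin-, and cartilage, bone and megakaryocyte genes at the upper left.

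The genes of proteins that lineage antibodies commonly bind, and of related antigens, were mostly far lower in Lin-. Of 12 such genes, 10 passed the filter, 4 of them only through BMC, and 9 were lower in Lin-, with none higher (median log2 difference -3.06), beside 28.4% of all genes tested that were lower. Without Lin- replicate 3, 10 were lower. The list took 0.195%, 0.174% and 0.162% of the FPKM sum in BMC and 0.0103%, 0.00675% and 0.0853% in Lin-, so Lin- replicate 3 stood above the other Lin- libraries and below BMC. Ly6g, which encodes the neutrophil antigen bound by Gr-1 antibodies, was at 473, 372 and 301 FPKM in BMC and had no read in any Lin- library. It was at least 720.2-fold lower, with 3 reads over the group set as the floor. Itgam, which encodes CD11b of myeloid cells, was at 243, 185 and 156 FPKM in BMC and 1.17, 0.731 and 0.135 in Lin-, 286-fold lower. Ptprc, which encodes CD45 of all white cells and, as an isoform, the B220 antigen, was at 199, 183 and 164 FPKM in BMC and 16.1, 11.7 and 11.9 in Lin-. Ptprc fell 13.8-fold and remained the most abundant of the called antigen genes in Lin-. In these 3 genes every Lin- library lay below every BMC library.

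The T cell antigens were low in BMC already. Cd4 was at 1.49, 4.49 and 2.96 FPKM in BMC and 0.327, 0.128 and 0.0535 in Lin-. Cd8a was at 1.62, 3.35 and 1.54 in BMC and 0, 0.0551 and 0.207 in Lin-. Cd3e and Cd5 did not pass the filter. Klrb1c, which encodes NK1.1, was at 3.89, 4.87 and 4.61 in BMC and 0.643, 0.641 and 0.364 in Lin-. Il7r, the receptor chain that early lymphoid cells need, was at 24.5, 28.04 and 26.7 FPKM in BMC and 3.38, 3.17 and 6.39 in Lin-. Fcgr3, an Fc receptor of myeloid cells, fell from 186, 125 and 129 to 2.02, 1.49 and 0.497.

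Neutrophils, the most abundant mature cells of marrow, gave the largest falls. They fill with granules in steps, the primary granules in promyelocytes, the secondary in myelocytes and the later ones as the cell matures. The 19 late neutrophil genes took 14.9%, 12.3% and 12% of the FPKM sum in the BMC libraries and 0.0116%, 0.0101% and 0.00481% in Lin-. The 12 secondary granule genes took 4.72%, 4.07% and 3.72% in BMC and 0.0249%, 0.0105% and 0.0208% in Lin-. Every tested gene of both lists was lower in Lin-, 19 of 19 with a median log2 difference of -6.59 and 12 of 12 with -8.37; of these, 10 and 5 passed the filter only through BMC.

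S100a8 and S100a9 form calprotectin, the most abundant protein of the neutrophil cytosol. S100a8 was at 38770, 30480 and 29440 FPKM in BMC and 1.87, 0.881 and 3.301 in Lin-, a log2 difference of -13.48 (SE 0.31, adjusted p = 1.5e-06). S100a9 was at 44150, 34630 and 33270 FPKM in BMC and 4.21, 5.95 and 3.31 in Lin-. These are differences of 16310-fold and 8321-fold between means, and the Lin- values rest on few reads, 13 over the 3 libraries for S100a8 and 41 for S100a9. Retnlg fell from 4305, 3373 and 3051 to 0.241, 0.568 and 0.709 FPKM, and Mmp8, the neutrophil collagenase, from 834, 634 and 584 to 0.0597, 0.211 and 0.0879. Lyz2, which encodes the lysozyme of neutrophils and macrophages, was at 8518, 6479 and 5712 FPKM in BMC and 38.8, 30.3 and 24.02 in Lin-.

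Among the secondary granule genes, Ngp, an inhibitor of cathepsins, was at 11140, 9073 and 8213 FPKM in BMC and 1.56, 1.28 and 0.886 in Lin- (7628-fold lower). Camp, the antimicrobial peptide cathelicidin, was at 6228, 5330 and 5117 in BMC and 2.92, 0.574 and 0.359 in Lin-. Ltf, the iron-binding lactoferrin, was at 5147, 4035 and 3467 in BMC and 2.08, 1.01 and 0.393 in Lin-. Camp fell 4322-fold and Ltf 3631-fold between means, and the 3 genes lie on chromosome 9 of GRCm38. By GENCODE vM21, whose positions can differ from those of RefSeq, the lowest coordinate is 109847379 for Camp, 110419747 for Ngp and 111019271 for Ltf. It is given whatever the strand, so it need not be the transcription start. Lcn2, which binds bacterial siderophores, fell from 2053, 1478 and 1292 to 0.573, 0.2999 and 0.468 FPKM. Hp, which encodes haptoglobin, fell least on this list, from 879.8, 659.9 and 543 to 89, 36.4 and 113. Cebpe, the transcription factor that secondary granule genes need, fell from 92.3, 73.9 and 72.9 to 0.947, 0.418 and 0.522.

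Promoters of Ngp and Ltf are shown since both genes are among the largest falls and carry matches to a C/EBP consensus (TTGCNNAA or, on the other strand, TTNNGCAA), which is in capitals; each runs 250 bases up to the transcription start, from RefSeq on GRCm38.p6. The Ngp promoter is chr9:110419558-110419807, plus strand, with matches that begin 138 and 11 bases before the start, and that of Ltf is chr9:111019042-111019291, plus strand, with 1 match 75 bases before it.
Ngp: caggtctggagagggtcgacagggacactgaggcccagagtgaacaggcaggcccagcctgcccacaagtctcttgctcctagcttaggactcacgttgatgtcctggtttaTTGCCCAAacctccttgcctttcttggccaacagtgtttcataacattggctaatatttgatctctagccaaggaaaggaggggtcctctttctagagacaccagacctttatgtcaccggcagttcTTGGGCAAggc
Ltf: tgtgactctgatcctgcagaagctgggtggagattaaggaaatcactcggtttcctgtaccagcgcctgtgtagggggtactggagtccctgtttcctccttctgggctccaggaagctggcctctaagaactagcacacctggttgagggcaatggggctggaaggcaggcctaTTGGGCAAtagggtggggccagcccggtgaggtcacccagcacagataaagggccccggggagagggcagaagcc
Of the secondary granule genes called lower, 9 had a promoter in the table, matched by symbol, and 4 of these held the motif, as did 5 of 16 late neutrophil genes. Of the 8474 tested genes with a promoter, 7.6% held it, and of all 27025 promoters 9.6%. A match describes the letters and was not tested as a binding site.

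The primary granule genes, which progenitors already express, fell less and differed more between the Lin- libraries. Of 12 tested, 11 were lower and 1 higher (median log2 difference -3.27), and 2 passed the filter only through BMC. Mpo, myeloperoxidase, was at 528, 446 and 445 FPKM in BMC and 194, 122 and 29.7 in Lin-. Ctsg, cathepsin G, was at 209, 176 and 179.5 in BMC and 75.3, 44.4 and 13.6 in Lin-. In both genes Lin- replicate 1 was highest and replicate 3 lowest, with no overlap with BMC. Elane, neutrophil elastase, was at 462, 360 and 369.7 FPKM in BMC and 15.9, 11.1 and 0.938 in Lin-. Prtn3, proteinase 3, was at 178, 129 and 129.8 in BMC and 27.7, 17.5 and 6.35 in Lin-, in the same order of the Lin- libraries. Mpo fell 4.11-fold between means, Prtn3 8.46-fold and Elane 42.7-fold; the call of Mpo was lost without BMC replicate 1 (adjusted p = 0.057). Calr, a chaperone of the endoplasmic reticulum found in most cells, was the member that rose, from 227, 180 and 192 to 341, 344 and 253, a call that was lost without BMC replicate 2 or 3 or Lin- replicate 1 or 2 (adjusted p up to 0.078).

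Monocyte genes fell in 14 of 15 tested members (median -3.69), and 1 of the 15 passed the filter only through BMC. Ly6c2, the surface marker of inflammatory monocytes, was at 902, 742 and 640.2 FPKM in BMC and 8.28, 4.34 and 1.896 in Lin-. Csf1r, the receptor for M-CSF, was at 64.8, 51.6 and 45.8 in BMC and 5.49, 2.47 and 1.37 in Lin-. Ccr2, which guides monocytes out of the marrow, was at 59.5, 52.6 and 47.03 in BMC and 2.45, 0.648 and 1.11 in Lin-. The Lin- libraries were under 10% of the BMC libraries in Ly6c2 and Ccr2, and replicate 1 was highest in all 3 genes. Klf4 was not called, at 26.2, 20.6 and 23.3 in BMC and 14.8, 26.3 and 7.64 in Lin-. Genes of resident macrophages moved less: 5 of 10 were lower and none higher, or 3 without BMC replicate 1 or 3 or Lin- replicate 2 (with 1 higher without the last), and 8 without Lin- replicate 1. Of the 10, 1 passed the filter only through BMC. Adgre1, which encodes F4/80, fell from 28.6, 32.5 and 21.9 to 1.22, 0.106 and 0.664, while Vcam1, an adhesion protein of macrophages and of stroma, was at 19.9, 17.2 and 20.3 in BMC and 40.2, 12.2 and 48.7 in Lin- and was not called. Osteoclasts, which dissolve bone and come from the same line, had 3 of 7 tested genes higher and 2 lower, beside 29.1% and 28.4% of all genes. Ctsk, the protease that cuts bone collagen, rose from 3.58, 1.92 and 3.25 to 7.71, 7.92 and 6.26, while Acp5, the tartrate-resistant phosphatase, was at 13.01, 13.4 and 17.1 in BMC and 2.999, 2.89 and 13.1 in Lin- and was not called.

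Eosinophils and basophils carry their own granule proteins. All 11 tested eosinophil genes were lower in Lin- (median -5.80), 5 of them having passed the filter only through BMC. Prg2, the major basic protein, fell 112-fold, from 1775, 1796 and 1389 FPKM in BMC to 18.4, 10.9 and 14.9 in Lin-. Epx, eosinophil peroxidase, fell from 162, 151 and 125 to 2.35, 0.631 and 1.97. Ear1, Ear2 and Ear6, ribonucleases with near-identical sequences whose reads cannot be assigned with certainty, were at 238 to 591 FPKM in BMC and 0 to 2.999 in Lin-. Of the mast cell and basophil genes, 9 of 12 were lower and 1, Gata2, was higher. Of the 12, 3 passed the filter only through BMC. The basophil proteases differed between the Lin- libraries. Mcpt8 was at 124, 143 and 194 in BMC and 59.6, 19.8 and 9.58 in Lin-. Prss34 was at 177, 216 and 250.3 in BMC and 90.9, 31.9 and 12.4 in Lin-. Lin- replicate 1 was the highest and replicate 3 the lowest in both, as in the primary granule genes. Cpa3, a protease of mast cells and their progenitors, was at 25.2, 26.9 and 34.2 in BMC and 27.5, 16.2 and 9.21 in Lin- and was not called.

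**Figure D2:**
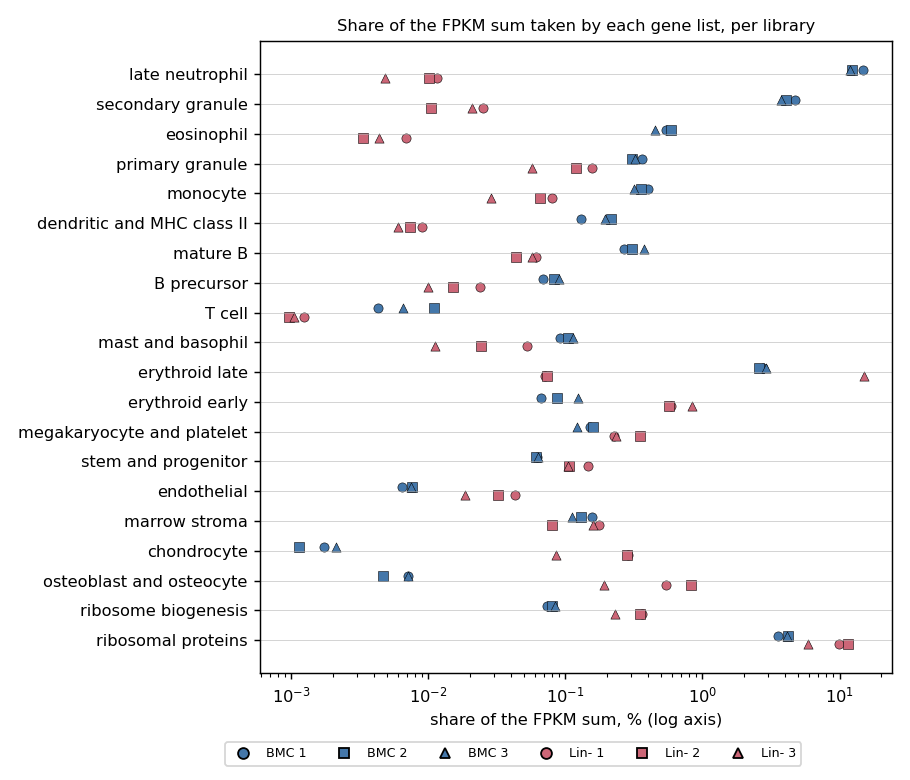
Share of the FPKM sum (x axis, in %, log axis) that each gene list (y axis) took in each of the 6 libraries; BMC in blue and Lin- in red, with 1 symbol per replicate. The late neutrophil list took 12% to 14.9% in BMC and under 0.02% in Lin-, and the late erythroid list took 15% in Lin- replicate 3 against 0.0707% and 0.0729% in replicates 1 and 2.

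Lymphoid genes fell along the whole line from precursors to mature cells. Of the B precursor genes 15 of 16 were lower (median -2.62) and of the mature B cell genes 15 of 15 (median -3.68), with none higher in either list; 5 and 7 of them passed the filter only through BMC. Vpreb1, a part of the surrogate light chain of pre-B cells, was at 20.1, 26.9 and 23.3 FPKM in BMC and 0.263, 0.6203 and 1.74 in Lin-. Igll1, its partner, was at 17.2, 28.6 and 29.8 in BMC and 0.135, 0.0798 and 1.096 in Lin-. Rag1, which with Rag2 cuts antigen receptor genes for joining, was at 38.5, 46.5 and 63.3 in BMC and 0.931, 0.496 and 2.48 in Lin-. Lin- replicate 3 was the highest of the Lin- libraries in these genes and still under 10% of the lowest BMC library. Dntt, which adds nucleotides at the joints and is already on in lymphoid progenitors, fell less, from 36.2, 55.6 and 51.8 to 19.4, 9.41 and 6.08, and here Lin- replicate 1 was highest. Cd79a and Cd79b, the signalling chains of the B cell receptor, fell 50.6-fold and 38.8-fold, and Ms4a1, which encodes CD20, from 49.5, 58.1 and 81.3 to 0.285, 0.252 and 0.734 FPKM. Ighm, the constant region of IgM, remained at 265, 196 and 315 FPKM in Lin- against 1020, 1032 and 1272 in BMC, 4.29-fold lower.

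Antigen-presenting genes, which B cells share with dendritic cells, fell as well. Cd74, the invariant chain of MHC class II, was at 434, 675 and 604 FPKM in BMC and 12.7, 10.5 and 12.5 in Lin-, and H2-Aa, a class II chain, at 101, 185 and 163 in BMC and 2.189, 1.93 and 2.99 in Lin-. Of the dendritic cell and class II list, 9 of 11 were lower and 1, Zbtb46, higher (0.379, 0.1796 and 0.678 FPKM in BMC, 2.77, 3.27 and 4.28 in Lin-), or 2 higher without Lin- replicate 3; 4 passed the filter only through BMC and 1 only through Lin-. Plasmacytoid dendritic cell genes were lower in 12 of 13, 5 of which passed only through BMC. Siglech, the surface lectin of these cells, fell from 10.2, 26.2 and 24.4 to 0.173, 0.255 and 0.637. T cell genes were low in both groups. All 8 tested were lower in Lin-, 6 of which had passed the filter only through BMC, with Cd3d at 5.22, 11.7 and 7.12 in BMC and 0.554, 0.522 and 0 in Lin-.

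Of natural killer and innate lymphoid genes, 10 of 12 were lower and 2 higher, with 6 having passed the filter only through BMC and 1 only through Lin-. Gzma, the granzyme of killer cells, fell from 25.2, 24.4 and 15.99 to 0.334, 0.393 and 0.491 FPKM. The rises were in Il1rl1, the receptor for IL-33, from 2.14, 2.53 and 2.96 to 12.8, 10.8 and 15.1, and in Rora, from 0.2997, 0.384 and 0.368 to 1.33, 1.096 and 2.194, and both are known from other cells as well. Plasma cell genes were lower in 5 of 7, or 3 without BMC replicate 1 or 2. Mzb1, a chaperone of antibody-secreting cells, was at 26.5, 36.2 and 41.7 in BMC and 0.809, 0.381 and 1.43 in Lin-.

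The erythroid line split by stage except in Lin- replicate 3, where late genes were high too. Early genes, which are on from the committed progenitor, rose: 17 of 20 were higher in Lin- and none lower (median log2 difference 2.31, or 1.94 without Lin- replicate 3, with 17 higher). Of the 20, 1 passed the filter only through Lin-. Gata1, the transcription factor of the red cell and platelet lines, was at 8.695, 7.702 and 9.23 FPKM in BMC and 56.7, 48.9 and 70.1 in Lin- (6.86-fold, adjusted p = 3.7e-05). Klf1, which switches on the globin programme, was at 14.6, 21.5 and 27.6 in BMC and 108, 115 and 143 in Lin-. Epor, the receptor for erythropoietin, was at 3.53, 5.13 and 5.79 in BMC and 26.4, 31.2 and 36.3 in Lin-. In these 3 genes all Lin- libraries were above all BMC libraries, and replicate 3 was the highest by less than 1.5-fold over the next. Car1, carbonic anhydrase 1, rose from 32.9, 37.8 and 58.6 to 1028, 1149 and 1182 FPKM, 25.99-fold. Car2, which osteoclasts also use, rose from 163, 192 and 255 to 732, 699 and 1795. The members not called were Rhd, Hemgn and Tfrc, the transferrin receptor. Tfrc was at 41.2, 41.6 and 72.7 in BMC and 69.8, 51.9 and 255 in Lin-, where only replicate 3 was far from BMC.

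Late genes, which build the red cell, separated the Lin- libraries from each other. Of 20 tested, 1 was higher and none lower. Without Lin- replicate 3, 2 were higher and 17 lower, and the median log2 difference moved from -0.85 to -2.67. Hbb-bs, an adult beta globin, was at 7255, 6581 and 7331 FPKM in BMC and 72.98, 83.4 and 38850 in Lin-. Hba-a1, an alpha globin, was at 3702, 3407 and 3628 in BMC and 43.5, 47.6 and 18170 in Lin-. Each has a close paralog (Hbb-bt, Hba-a2), and reads of the pairs cannot be assigned with certainty. Alas2, the first enzyme of heme synthesis in red cells, was at 281, 245 and 257 in BMC and 2.93, 2.66 and 1399 in Lin-. Slc4a1, the band 3 anion exchanger, was at 128, 160.3 and 207 in BMC and 6.499, 6.71 and 997 in Lin-. In these 4 genes Lin- replicates 1 and 2 were over 10-fold below every BMC library, and replicate 3 was above every one of them. The whole list took 2.75%, 2.57% and 2.89% of the FPKM sum in BMC and 0.0707%, 0.0729% and 15% in Lin-. Rhag, a partner of the Rh proteins that comes on early, was the member called higher with all 6 libraries, at 11.1, 15.6 and 19.7 in BMC and 32.2, 30.6 and 137 in Lin-, and the call was lost without any 1 of the BMC libraries (adjusted p up to 0.12).

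**Figure D3:**
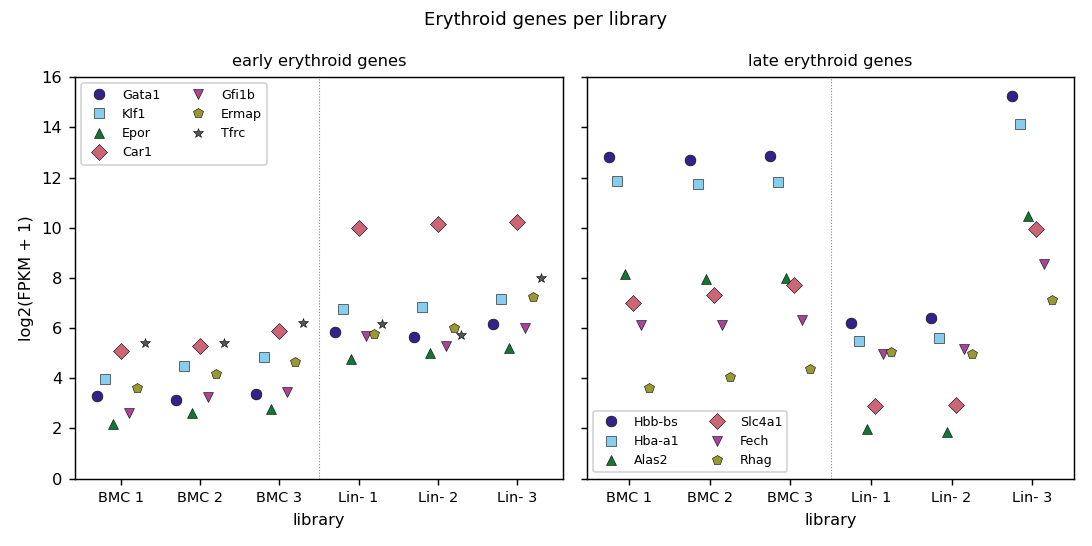
Levels of 7 early (left) and 6 late (right) erythroid genes in each library (x axis), as log2(FPKM + 1) (y axis); each symbol is 1 gene. Early genes were higher in the Lin- libraries than in BMC except Tfrc, whose groups overlapped. Hbb-bs, Hba-a1, Alas2, Slc4a1 and Fech were below BMC in Lin- replicates 1 and 2 and above it in replicate 3.

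Megakaryocytes are the large cells that shed platelets, and most of their listed genes were higher in Lin-. Of 24 tested, 20 were higher in Lin- and 3 lower (median 3.25); 9 of the 24 passed the filter only through Lin-. Pf4, a chemokine stored in platelet granules, was at 5.505, 11.2 and 13.8 FPKM in BMC and 403, 654 and 443 in Lin- (49.3-fold, adjusted p = 3.7e-05). Ppbp, its neighbour and fellow granule chemokine, was at 0.6401, 0.809 and 4.45 in BMC and 179.8, 343 and 326 in Lin-. Both genes lie on chromosome 5 of GRCm38, Ppbp from 90768518 to 90770063 and Pf4 from 90772435 to 90773383. In both, Lin- replicate 2 was the highest, and the lowest Lin- library was over 20-fold above the highest BMC library.

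The receptors of the line rose as well. Itga2b, which encodes the integrin CD41, was at 5.03, 4.12 and 4.87 FPKM in BMC and 55.4, 86.4 and 64.2 in Lin-. The 4 genes of the platelet receptor for von Willebrand factor were all called higher. Gp9 was at 1.14, 2.15 and 2.37 in BMC and 32.3, 61.1 and 38.02 in Lin-, and Gp5 at 0.315, 0.597 and 0.3504 in BMC and 22.9, 32.3 and 31.3 in Lin-. Gp1ba was at 0.0848, 0.0803 and 0.354 in BMC and 8.19, 11.2 and 15.6 in Lin-, and Gp1bb at 1.103, 1.39 and 1.33 in BMC and 10.2, 25.1 and 14.4 in Lin-. Each BMC value in these genes was below 2.4 FPKM and each Lin- value above 8. Gp6, the collagen receptor, was at 0, 0.1895 and 0.501 in BMC and 11.3, 16.8 and 10.1 in Lin-. Tubb1, the tubulin of the platelet rim, was at 0.492, 0.466 and 0.684 in BMC and 24.6, 50.9 and 54.8 in Lin-. Vwf, von Willebrand factor, which endothelial cells make as well, was at 1.09, 0.816 and 0.862 in BMC and 16.5, 25.1 and 30.2 in Lin-. The members that fell are not restricted to this line. Thbs1, thrombospondin 1, fell from 714, 719 and 516 to 45.3, 69.8 and 59.1. Nbeal2, needed for platelet granules, fell from 31.2, 24.3 and 19.3 to 3.77, 3.45 and 5.12, and Plek, also abundant in white cells, from 165, 139 and 126 to 74.5, 97.7 and 95.99, a fall that was not called under TPM.

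Promoters of Pf4, Gp5, Gp1ba and of the erythroid gene Klf1 are shown because these genes rose together with Gata1, whose protein binds the consensus AGATAA or its forms with T as first or G as last letter, searched on both strands (TTATCT on the other) and put in capitals. They are RefSeq sequences on GRCm38.p6 of 250 bases up to the transcription start, at chr5:90772185-90772434 (plus strand), chr16:30310782-30311031 (minus), chr11:70638872-70639121 (plus) and chr8:84901732-84901981 (plus).
Pf4: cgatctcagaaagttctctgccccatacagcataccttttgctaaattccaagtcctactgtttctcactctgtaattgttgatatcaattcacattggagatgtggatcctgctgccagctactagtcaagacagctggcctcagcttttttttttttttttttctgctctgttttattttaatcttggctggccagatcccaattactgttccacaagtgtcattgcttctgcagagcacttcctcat
Gp5: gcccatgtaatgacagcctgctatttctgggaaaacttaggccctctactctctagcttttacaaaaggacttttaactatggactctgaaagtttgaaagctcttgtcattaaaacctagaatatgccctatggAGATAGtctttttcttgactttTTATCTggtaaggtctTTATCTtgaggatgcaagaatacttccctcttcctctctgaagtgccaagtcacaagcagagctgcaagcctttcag
Gp1ba: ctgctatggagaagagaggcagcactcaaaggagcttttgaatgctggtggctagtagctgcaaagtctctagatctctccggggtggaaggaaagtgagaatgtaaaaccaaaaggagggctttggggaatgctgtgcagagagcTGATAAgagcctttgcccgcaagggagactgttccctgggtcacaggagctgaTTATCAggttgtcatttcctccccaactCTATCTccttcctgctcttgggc
Klf1: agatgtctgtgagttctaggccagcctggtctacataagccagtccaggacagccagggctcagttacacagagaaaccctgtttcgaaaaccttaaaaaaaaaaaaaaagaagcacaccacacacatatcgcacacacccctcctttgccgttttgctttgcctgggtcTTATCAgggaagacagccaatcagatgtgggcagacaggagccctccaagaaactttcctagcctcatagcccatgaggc
Gp5 held 3 matches, which begin 115, 93 and 77 bases before the start, Gp1ba 3, at 104, 51 and 23 bases, Klf1 1, at 80 bases, and Pf4 none in this window. Of the called megakaryocyte genes with a promoter sequence, 7 of 16 held the motif, and of the early erythroid genes 5 of 12. The motif was in 17.0% of the tested genes with a promoter and in 27.1% of all 27025 promoters. These matches describe the letters and were not tested as binding sites.

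Genes of stem and progenitor cells rose by smaller factors. Of 26 tested, 16 were higher and 4 lower (median 1.05). Of the 26, 8 passed the filter only through Lin- and 1 only through BMC; with the filter applied again without Lin- replicate 1 or 2, 8 of 18 were higher. Kit, the receptor for stem cell factor, was at 13.9, 12.9 and 11.8 FPKM in BMC and 53.1, 40.8 and 58.1 in Lin- (3.93-fold). Gata2 was at 11.3, 13.2 and 15.4 in BMC and 39.8, 38.2 and 21.2 in Lin-, and Meis1, a partner of Hox proteins, at 1.39, 1.22 and 1.26 in BMC and 6.25, 4.72 and 4.597 in Lin-. Tal1 and Lmo2, partners in a complex that early blood cells and red cell precursors share, rose 5.13-fold and 2.42-fold. Angpt1, a ligand that progenitors and stroma make, rose from 3.52, 5.18 and 4.88 to 28.4, 19.1 and 25.6. Cd34 was at 21.98, 21.99 and 19.96 in BMC and 72.9, 46.7 and 22.4 in Lin-, with no overlap, but the spread of Lin- left it uncalled (adjusted p = 0.072). Hoxa9 and Hoxa10 were near 1 FPKM in Lin- (1.36, 1.36 and 1.24 and 1.34, 1.06 and 1.32) and passed only through that group. Gfi1 fell from 6.53, 6.59 and 7.76 to 0.948, 0.319 and 0.199 and Cd48 from 65.1, 56.6 and 60.99 to 33.6, 20.03 and 15.8, and both are also expressed in mature white cells. Ly6a, which encodes Sca-1, fell from 20.5, 21.3 and 19.3 to 10.7, 8.64 and 8.95. Erg fell from 12.6, 13.3 and 11.3 to 9.34, 5.28 and 3.92, a call that was lost without BMC replicate 1 or 2 or Lin- replicate 2 (adjusted p up to 0.067) and under TPM. Mecom and Procr, genes of the rare stem cells, stayed under 1.5 FPKM in all 6 libraries and did not pass.

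LSK cells (Lin- Sca1+ cKit+), the fraction of Lin- that holds the stem cells, stood in the same table but were made with a full-length kit, so their values are given beside and not compared. Kit was at 90.4 ± 12.8 FPKM in LSK (mean ± SD, n = 3), Cd34 at 349 ± 9.81, Meis1 at 17.3 ± 3.18 and Ly6a at 82.7 ± 0.699. Gata1 was at 2.35 ± 1.01, Klf1 at 1.47 ± 0.284, Pf4 at 27.7 ± 12.6 and Mpo at 141 ± 18.8. Col1a1 was at 0.463 ± 0.291 and Cxcl12 at 3.01 ± 0.896.

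Transcription factors that set the fate of blood cells both fell and rose. Of 30 tested, 18 were lower and 7 higher, beside 28.4% and 29.1% of all genes tested. Of the 30, 3 passed the filter only through BMC. Spi1 (PU.1), which myeloid and B cells need, fell 13.9-fold, from 112, 93.8 and 79.4 to 10.1, 7.49 and 2.88. The B cell factors Pax5 and Ebf1 fell too, Ebf1 from 15.4, 19.6 and 19.3 to 1.46, 1.52 and 2.52. Those that rose were Gata1, Gata2, Klf1, Gfi1b, Tal1, Myb and Zfpm1, the partner of Gata1, which was at 22.96, 33.3 and 34.4 in BMC and 79.8, 81.4 and 102 in Lin-. In Spi1 and Ebf1 the lowest BMC library was over 6-fold above the highest Lin- library.

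Receptors for growth factors and chemokines also went both ways, with 18 of 32 lower and 11 higher, of which 4 and 6 passed the filter only through BMC and only through Lin-. Of all genes tested, 28.4% were lower and 29.1% higher. Csf3r, the G-CSF receptor, fell from 203, 139 and 122 to 5.56, 3.11 and 1.49 FPKM. Csf2rb, the shared chain for GM-CSF, IL-3 and IL-5, fell from 81.3, 55.5 and 48.3 to 5.29, 2.86 and 1.13, and Ccr1 from 112, 74.3 and 74.3 to 0.673, 0.183 and 0. Cxcr4, the receptor for CXCL12 that holds blood cells in the marrow, fell 5.62-fold, from 476, 483 and 457 to 89.2, 94.8 and 67.98. The receptors that rose included Epor, Kit, Tek, Il1rl1, Il1r1, Fgfr1, Lepr, Lifr, Pdgfra and Pdgfrb, the last 2 known from stromal cells. Pdgfrb rose from 0.841, 1.55 and 1.58 to 19.8, 10.1 and 20.7, and Pdgfra from 0.0342, 0.0324 and 0.0571 to 5.52, 2.66 and 5.73.

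Genes of cells that are not blood cells gave the largest rises. Of the 15 largest, Col1a1, Col1a2, Sparc, Bglap, Bglap2 and Ibsp belong to bone, Col2a1, Comp and Col11a2 to cartilage, Cxcl12 and Tnc to marrow stroma, Mgp and Serpinh1 to matrix-making cells more widely, and Pf4 and Ppbp to megakaryocytes. Most such genes were close to 0 in BMC: 14 of 18 tested cartilage genes, 8 of 16 bone genes and 12 of 21 stromal genes passed the filter only through Lin-. Called higher were 17, 15 and 17 of them. These counts describe genes that mostly had to differ.

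In the bone list, Col1a1 and Col1a2, the chains of type I collagen, were the most abundant. Col1a1 was at 6.99, 0.865 and 8.32 FPKM in BMC and 1069, 2007 and 498 in Lin- (log2 difference 7.63, SE 0.73, adjusted p = 2.1e-04). Col1a2 was at 3.57, 0.486 and 3.804 in BMC and 562, 942 and 211 in Lin-. Bglap, osteocalcin of osteoblasts, was at 1.12, 0 and 0.934 in BMC and 366, 549 and 134 in Lin-, with reads that cannot be told for certain from those of its copy Bglap2. Ibsp, bone sialoprotein, was at 0.446, 0.211 and 1.67 in BMC and 99.2, 86.7 and 95.6 in Lin-, close in the 3 Lin- libraries. In Col1a1, Col1a2 and Bglap, Lin- replicate 2 was highest and replicate 3 lowest. Sp7, the osteoblast transcription factor, was at 0, 0 and 0.132 in BMC and 3.43, 4.16 and 1.56 in Lin-. Pth1r, the parathyroid hormone receptor, had no read in BMC and 12.1, 9.66 and 6.95 FPKM in Lin-. Genes of osteocytes, which sit inside the mineral, were low or absent: Dmp1 was at 1.86, 1.81 and 1.41 FPKM in Lin-, and Sost had no read in any of the 6 libraries. Runx2, an osteoblast factor that plasmacytoid dendritic cells also express, was the member that fell, from 5.34, 6.08 and 5.01 to 3.46, 1.95 and 2.88.

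In the cartilage list, Col2a1, type II collagen, was at 2.73, 0.364 and 1.79 FPKM in BMC and 674, 695 and 224 in Lin- (326-fold, adjusted p = 6.4e-05). Acan, the large proteoglycan aggrecan, was at 0.313, 0 and 0.0785 in BMC and 51.7, 42.6 and 20.6 in Lin-. Comp, a matrix protein of cartilage and tendon, was at 0.19, 0.1801 and 0.397 in BMC and 85.3, 73.1 and 34.1 in Lin-. Col10a1, the collagen of hypertrophic cells at the growth plate, was at 0, 0.349 and 1.11 in BMC and 41.8, 48.7 and 22.9 in Lin-. In each of these genes Lin- replicates 1 and 2 were close and replicate 3 was lower. Matn3, a matrilin, had no read in BMC and was at 26.3, 21.2 and 6.01 in Lin-, at least 252-fold higher. Lect1, chondromodulin, had no read in BMC and was at 42.4, 39.2 and 13.5 in Lin-, at least 273-fold higher. Sox6 was not called; it was at 3.46, 4.83 and 7.06 in BMC and 2.33, 3.63 and 37.3 in Lin-, high only in replicate 3, and it is also a factor of red cell precursors. Cartilage genes took 0.284%, 0.279% and 0.0852% of the FPKM sum in the 3 Lin- libraries and 0.00174%, 0.00114% and 0.00213% in BMC.

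The marrow stroma list holds genes of the reticular cells that feed blood stem cells. Its share of the FPKM sum overlapped between the groups, at 0.157%, 0.13% and 0.112% in BMC and 0.177%, 0.0796% and 0.159% in Lin-. Cxcl12, the chemokine that retains stem cells, was at 0.902, 0.641 and 1.81 FPKM in BMC and 110.5, 38.3 and 180 in Lin- (98-fold, adjusted p = 2.4e-04). Lepr, the leptin receptor that marks these cells, was at 0.196, 0.186 and 0.546 in BMC and 20.8, 6.097 and 45.2 in Lin-. Adipoq, adiponectin, was at 0, 0.316 and 0.697 in BMC and 31.1, 10.4 and 58.2 in Lin-. Kitl, stem cell factor, was at 0, 0.0379 and 0.1001 in BMC and 6.61, 2.13 and 12.8 in Lin-. In all 4 genes Lin- replicate 3 was highest and replicate 2 lowest, the reverse of the order of Col1a1 and Bglap. Igfbp5 (50.5, 15.3 and 90.01 FPKM in Lin-), Ebf3 (3.85, 1.99 and 9.49) and Chrdl1 (8.52, 2.91 and 12.7) had the order of Cxcl12, while Tnc, tenascin C, was at 78.8, 45.6 and 46.5, with replicate 1 highest. The 2 list members that fell, Hp and Ebf1, are abundant in neutrophils and B cells. Vcam1 and Lpl were not called.

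**Figure D4:**
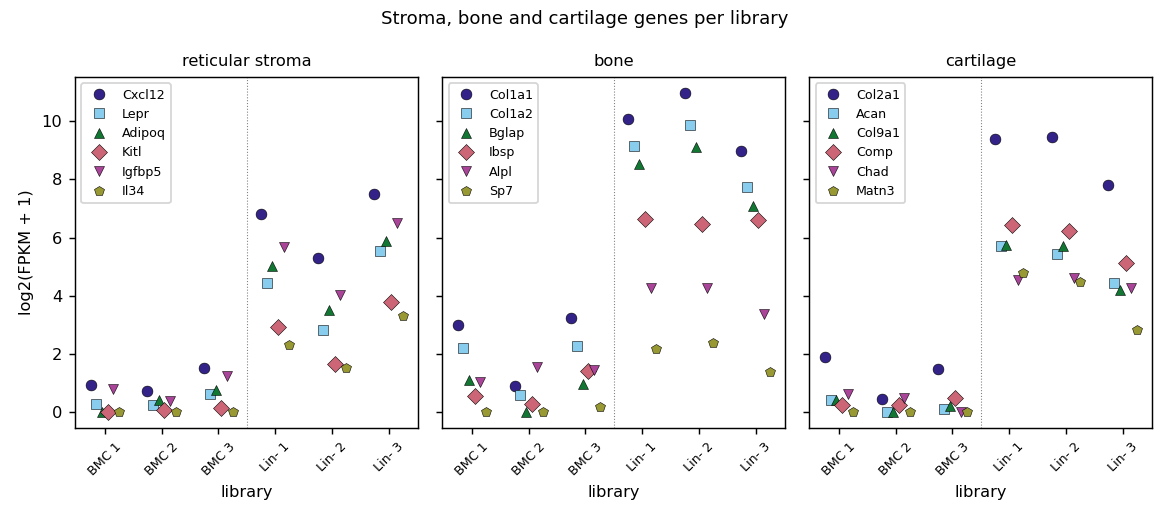
Levels of 6 genes each of reticular stroma (left), bone (middle) and cartilage (right) per library (x axis), as log2(FPKM + 1) (y axis); each symbol is 1 gene. All 18 genes were higher in every Lin- library than in every BMC library; within Lin-, replicate 2 was lowest in the stromal genes and highest in Col1a1, Col1a2 and Bglap.

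Other tissue cells were present at lower levels. Of the fibroblast and tendon genes 9 of 12 were higher. Of the 12, 7 passed the filter only through Lin- and 1 only through BMC. Dcn, decorin, rose from 0.111, 0.209 and 0.554 to 56.3, 63.4 and 30.1. Mgp, an inhibitor of mineralization, rose from 1.16, 0 and 0.965 to 125, 75.9 and 126. Those that fell were Ly6a, as above, Pi16, from 38.7, 30.1 and 25.3 to 0.551, 0.3896 and 0.0541, and Fn1, fibronectin, from 105, 82.2 and 64.8 to 27.3, 25.98 and 34.6. Of the mural genes 6 of 8 were higher, such as Rgs5 of pericytes, from 0.101, 0.048 and 0.127 to 11.4, 6.91 and 13.2. Of the 8 mural genes, 6 passed the filter only through Lin-; with the filter applied again without any 1 Lin- library, 2 were left to test and 0 were higher. The lower one was Acta2, the actin of smooth muscle, from 10.3, 7.23 and 7.13 to 1.398, 2.33 and 1.57. Myh11, the myosin of mature smooth muscle, stayed under 1 FPKM in all 6 libraries.

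Endothelial genes, the subject of the wider series, were higher in 14 and lower in 2 of 16 tested members, 9 of which passed the filter only through Lin-. Cdh5, which encodes VE-cadherin of endothelial junctions, was at 1.68, 2.301 and 2.896 FPKM in BMC and 10.7, 6.75 and 3.19 in Lin-, where the lowest library, replicate 3, was just above the highest BMC library. Its call held without Lin- replicate 3 and was lost without any other library (adjusted p up to 0.11). Kdr, the main receptor for VEGF, was at 0.127, 0.18 and 0.317 in BMC and 4.77, 2.99 and 2.43 in Lin-. Stab2, a scavenger receptor of sinusoids, was at 0.132, 0.299 and 0.242 in BMC and 4.42, 2.01 and 1.21 in Lin-. Plvap, of the diaphragms of fenestrated vessels, was at 0.114, 0.108 and 0.955 in BMC and 19.7, 15.5 and 7.92 in Lin-. Fabp4, a fatty acid carrier of capillaries and fat cells, was at 2.17, 1.71 and 3.62 in BMC and 23.4, 14.1 and 4.74 in Lin-, a call that was lost without BMC replicate 1 or 2 or Lin- replicate 2 (adjusted p up to 0.061). In all 5 genes replicate 1 was the highest Lin- library and replicate 3 the lowest. Pecam1, which platelets and white cells also carry, fell from 13.7, 15.6 and 15.8 to 12.7, 9.39 and 7.96, and Erg fell as above. Neither fall was called under TPM, and that of Pecam1 was lost without any BMC library or Lin- replicate 2 (adjusted p up to 0.1), so the list had 0 to 2 lower members. The list took 0.00638%, 0.00757% and 0.00746% of the FPKM sum in BMC and 0.0431%, 0.032% and 0.0185% in Lin-.

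Basement membrane and matrix genes, shared by endothelial, mural and stromal cells, were higher in 16 of 19, but 15 of the 19 passed the filter only through Lin-. Col4a1, type IV collagen, rose from 0.439, 0.3202 and 0.451 to 33.3, 16.2 and 19.2 FPKM and Sparc, a matrix protein of bone and vessels, from 3.901, 0.584 and 3.83 to 499, 644 and 234. Of 10 fat cell genes 3 passed the filter, 1 of them only through Lin-. Of these, 2 were higher and none lower: Adipoq, which marrow stromal cells also express, and Fabp4, with the limits given above. The list's share of the FPKM sum was 0.000463%, 0.000635% and 0.000988% in BMC and 0.0127%, 0.00529% and 0.0113% in Lin-. Plin1, Cidec and Lep were under 0.2 FPKM in each library, Myh1 of skeletal muscle had no read, and Sox10 of Schwann cells was at most 0.108. Of 13 skeletal muscle genes, 2 passed the filter and 0 were called, or 1 higher without Lin- replicate 1. Of 11 Schwann and nerve genes, 2 passed, 1 of them only through Lin-. Of these 2, 1 was called higher and 1 lower, with 0 lower under TPM or without any 1 library other than Lin- replicate 3. Plin1 coats fat droplets, and its level stood beside 31.1, 10.4 and 58.2 FPKM of Adipoq in the Lin- libraries.

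Ligands of the niche went both ways. Of 17 tested, 9 were higher and 4 lower; 4 passed the filter only through Lin-. Besides Cxcl12 and Kitl, Cxcl14 rose from 0.379, 0.239 and 0.422 to 29.6, 13.9 and 38.7. Il34, another ligand of the M-CSF receptor, had no read in BMC and was at 3.89, 1.85 and 8.92 in Lin-. Spp1, osteopontin, rose from 22.9, 13.7 and 16.6 to 172, 146 and 101. Cxcl14 and Il34 were lowest in Lin- replicate 2, as Cxcl12 was. Osm, oncostatin M, fell from 204, 136 and 133 to 10.2, 9.04 and 3.796, and Il6 from 22.5, 19.5 and 23.5 to 3.77, 1.43 and 0.793. Il15, which natural killer cells need, fell from 11.2, 9.27 and 8.47 to 2.38, 1.27 and 2.03, and Vegfa from 20.9, 24.2 and 19.7 to 10.5, 9.13 and 5.78. Thpo, thrombopoietin, which is made mainly in the liver, had no read in any of the 6 libraries.

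**Figure D5:**
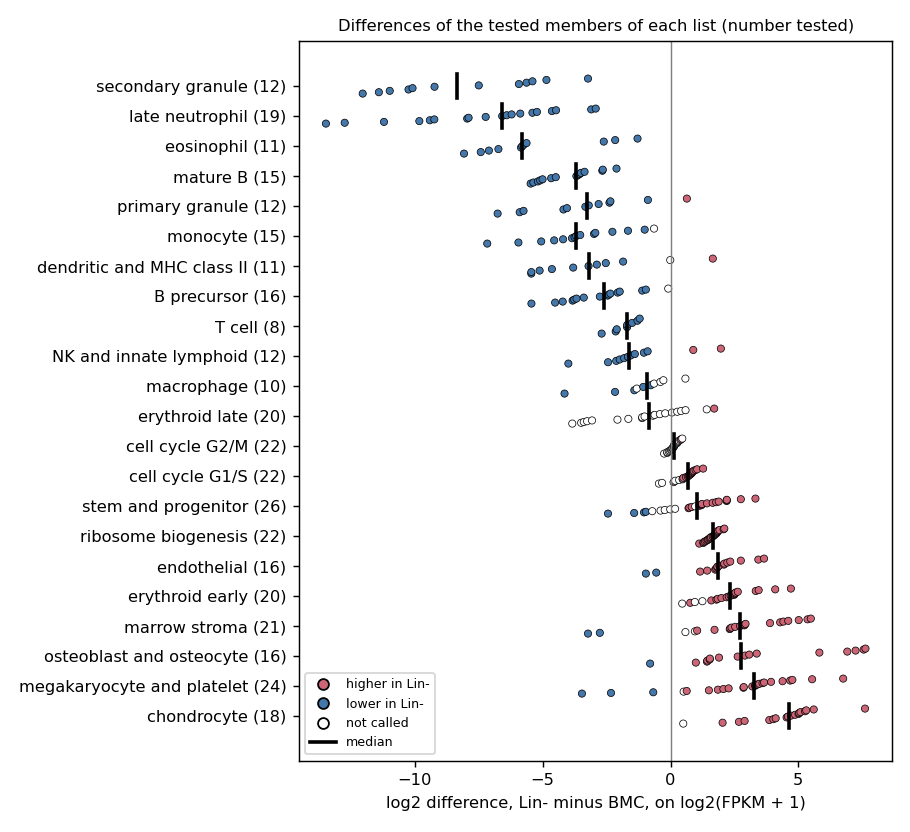
Log2 difference of Lin- minus BMC on log2(FPKM + 1) (x axis) for the tested members of 22 lists (y axis, number tested in parentheses); each circle is 1 gene, red where called higher, blue where called lower and white where not called, and bars mark medians. Medians ran from -8.37 in the secondary granule list to 4.65 in the cartilage list.

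Genes of growth rose together. All 22 genes of ribosome biogenesis were higher in Lin-, with a median of 1.67 beside 0.03 for all genes (1.91 under TPM, 1.62 with median-of-ratios scaling). Npm1, nucleophosmin, was at 130.2, 145 and 148 FPKM in BMC and 513, 534 and 425 in Lin-. Gnl3 was at 14.1, 14.7 and 17.7 in BMC and 75.5, 68.5 and 65.2 in Lin-. Polr1b, a subunit of RNA polymerase I, was at 4.09, 4.66 and 4.37 in BMC and 24.9, 21.1 and 19.3 in Lin-. Myc, which drives this programme, rose from 9.33, 9.08 and 8.57 to 36.3, 45.3 and 23.4. The groups did not overlap in these 4 genes. Of the ribosomal proteins 73 of 78 were higher and 1 lower, or none lower without any 1 library other than Lin- replicate 3 (median 0.92). Those called higher numbered 52, 61 and 58 without BMC replicates 1, 2 and 3, and 58, 65 and 76 without Lin- replicates 1, 2 and 3. Ribosomal proteins have many pseudogenes, so the level of single members is uncertain. They took 3.55%, 4.22% and 4.16% of the FPKM sum in BMC and 9.98%, 11.5% and 5.92% in Lin-, lowest in Lin- replicate 3. Proteasome genes were higher in 28 of 38 (17 without BMC replicate 2), beside 29.1% of all genes tested. They were lower in 1, or 2 without Lin- replicate 3 and 0 under TPM.

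The cell cycle lists moved unequally. Genes of DNA replication were higher in 14 of 22 and lower in none (median 0.69), or lower in 2 without Lin- replicate 3. Mcm2, of the replicative helicase, was at 48.1, 47.1 and 50.2 FPKM in BMC and 97.6, 111 and 94.5 in Lin-. Ccne1, cyclin E1, was at 9.002, 7.79 and 10.9 in BMC and 20.1, 19.3 and 33.6 in Lin-. Genes of mitosis were higher in 1 of 22 and lower in none (median 0.13). Under TPM 7 were higher, and without Lin- replicate 3 the calls were 2 higher and 5 lower. None was higher with median-of-ratios scaling, without any 1 BMC library or without Lin- replicate 2. Mki67, the proliferation antigen Ki-67, was at 148, 148 and 161 in BMC and 100.1, 105 and 363 in Lin-, below BMC in replicates 1 and 2 and above it in replicate 3. The histone genes that cells express while copying DNA were higher in 23 of 65, beside 29.1% of all genes tested, and lower in none. They were lower in 2 without Lin- replicate 3 and in 1 without Lin- replicate 2 or with median-of-ratios scaling. Their copies are near-identical. The count of higher ones fell to 7 without BMC replicate 1, 9 without BMC replicate 2, 14 without BMC replicate 3 and 10 without Lin- replicate 2.

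In metabolism, glycolysis was lower in 10 of 15 genes and higher in 4. Pkm, the pyruvate kinase of most dividing and white cells, fell 5.63-fold, from 636, 519 and 452 to 116, 115 and 54.7 FPKM, and Hk2 from 23.4, 21.9 and 19.1 to 5.59, 3.47 and 3.396. Hk1, the paralog of Hk2, rose from 16.6, 17.99 and 15.6 to 41.8, 45.8 and 46.96, as did Pfkm, the muscle-type phosphofructokinase that red cell precursors also use, from 3.43, 3.25 and 5.46 to 27, 32.7 and 26.8. On the FPKM scale Hk1 was thus below Hk2 in every BMC library and above it in every Lin- library. Cholesterol synthesis showed no common direction, with 4 of 18 higher and 7 lower, beside 29.1% and 28.4% of all genes tested. Of the 18, 1 passed the filter only through Lin-. Hmgcs1, which acts early in the pathway, fell from 15.8, 17.8 and 13.98 to 9.51, 8.44 and 10.4.

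Interferon-induced genes were lower in 15 of 21 and higher in none, and 4 of the 21 passed the filter only through BMC. Rsad2 (viperin), an antiviral enzyme, was at 48.2, 33.6 and 40.8 in BMC and 2.27, 3.59 and 190.3 in Lin-. Isg15, a ubiquitin-like protein, was at 15.2, 13.6 and 16.8 in BMC and 1.74, 4.79 and 35.9 in Lin-. Both were below BMC in Lin- replicates 1 and 2 and above it in replicate 3, and neither was called. Of the immediate early genes, which also respond to tissue dissociation, 7 of 18 were lower and 1 higher, beside 28.4% and 29.1% of all genes tested. Fos was at 899, 656 and 599 in BMC and 205, 215 and 82.4 in Lin-. Dusp1, a phosphatase, was at 220.1, 147 and 124 in BMC and 45.8, 54.5 and 43.1 in Lin-, while Jun rose from 38.7, 42.4 and 44.1 to 208, 284 and 105. Fos and Jun, partners in the AP-1 factor, thus changed in opposite directions. Without Lin- replicate 3, 6 were lower and 3 higher.

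RNAs without a poly(A) tail, which a total RNA kit retains, took 11.6%, 12.3% and 10.6% of the FPKM sum in BMC and 11.7%, 15.5% and 8.61% in Lin-. Of 12 tested, 2 were higher and none lower, or none higher without BMC replicate 1 or 3. Without BMC replicate 2, 1 was lower, and without Lin- replicate 1 or 3, 3 were higher. Rn7sk, which restrains transcription elongation, was at 50170, 50290 and 41370 FPKM in BMC and 30540, 35620 and 31560 in Lin- and was not called. Terc, the RNA of telomerase, rose from 40.3, 43.4 and 34.6 to 72.7, 116 and 56.6, a call that was lost without BMC replicate 1 or 3 (adjusted p up to 0.062). Mitochondrially encoded genes were higher in 2 of 12, or 1 without any 1 BMC library or Lin- replicate 1, 4 under TPM and 7 without Lin- replicate 2, the Lin- library with the lowest share of these genes (3.5%, 1.91% and 2.97% in the 3 Lin- libraries, 1.66%, 1.93% and 2.1% in BMC).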

How the data were processed

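Total RNA of sorted cells was sequenced, with 3 libraries each of BMC and Lin- made with the same stranded total RNA kit, per the labels' protocols. Per the submitters' processing notes, the tools were bcl2fastq 2.19.1.403, TopHat2 2.1.1, HTSeq 0.6.1 and DESeq2 1.18.1, with the build mm10; their settings are not given in the sources used here. The authors deposited FPKM per gene, for 38926 rows, of which 27 had names turned into dates and were left out. The FPKM were not scaled to each library's reads: the total each was divided by was 0.849 to 1.066 times the reads recovered from the steps of the values (whole within 0.005 for 100.0% of genes) and tracked size factors within -1.59% to 1.77%. Differences are Lin- minus BMC in limma 3.58.1 (R 4.3.3; eBayes with trend, two-sided) on log2(FPKM + 1), Benjamini-Hochberg adjusted over 12428 genes, with a threshold of 0.05; folds without a scale are ratios of mean FPKM, and a group without a read was set to a floor of 3 reads. On simulated data with 200 changed genes, 43.7% of changes of 1 and 86.5% of changes of 2 on the log2 scale were recovered, with 7.3% and 6.2% of the calls false. The simulation changed 200 of 12428 genes, while 57.5% were called in the data, so its rates need not hold for the reported calls. Exact permutation of 3 against 3 libraries cannot go below p = 0.1, so shares of the FPKM sum have no test. The genes and lists were chosen with earlier results of these data known. Some list members, 1 uncalled antigen gene among them, are not reported here. Named genes are list members, up to 6 called with the largest difference and 2 not called with the highest level per list, others where a list is described per library, and the 15 largest differences each way; positions are from GENCODE vM21 (GRCm38). The alternatives changed 1 choice at a time: the pseudocount (0.1 and 5), the filter on low values, the scaling (TPM, median of ratios), the trend of eBayes, a block for the replicate number, a spread shared with the other groups of the table, voom on the recovered reads and each library left out.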

Additional observations from a re-analysis of the deposited data

How the results depend on the processing

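With the pseudocounts, filters, scalings and fits tried, 0 genes were called in opposite directions. Higher and lower counts were 4126 and 2738 under TPM, 3392 and 3706 with median-of-ratios scaling, 3978 and 2989 with voom on the recovered reads, 4160 and 3689 with no filter (21221 genes) and 2442 and 2497 with a mean of at least 5 FPKM (8037 genes). Leaving out 1 library gave 2474 to 3456 higher and 2274 to 4242 lower genes; the lower counts without BMC replicates 1 (2303) and 2 (2274) were below the count with all 6 libraries by over 1.5 times, where genes found only in a group cut to 2 libraries cannot pass the filter; on the same genes they were 2989 and 2935. On the same 12428 genes, a setting chosen after seeing Lin- replicate 3, the ranges were 2943 to 4065 and 2935 to 4273. A fit with the replicate number as a block gave 3423 and 3359. Deviations from the group means correlated with r = 0.074, 0.007 and 0.094 between same-numbered libraries. Between libraries of different numbers, r ran from -0.083 to 0.047. Each BMC library correlated best with the same-numbered Lin- library, while Lin- replicate 2 correlated best with BMC replicate 1 (0.047). Such small values cannot tell whether same-numbered libraries share more than a number. By Xist and the Y-linked genes, BMC replicates 1 and 2 had the female pattern and Lin- replicates 1 and 2 the male pattern. These same-numbered libraries were thus not from the same animals. Of the genes named, 4 that were not called turned sign: over the fits without 1 library the log2 differences ran from -1.12 (without Lin- replicate 3) to 0.69 for Fech, -0.63 (without Lin- replicate 3) to 1.01 for Hemgn, -0.56 (without Lin- replicate 3) to 0.36 for Mki67 and -0.60 (without Lin- replicate 3) to 1.16 for Sox6. Mki67 was at -0.006 with median-of-ratios scaling. With mitochondrial and poly(A)-less RNA left out of the FPKM sum, the shares of the remaining lists rose by construction, for late neutrophil genes in BMC from a mean of 13.1% to 18.3%. Few reads limit the levels of neutrophil genes in Lin- and of bone and cartilage genes in BMC.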
